A study of Mus musculus with 72 samples.

Results

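Edn1, Ece1, Vegfc and Adm, 4 genes of peptides that act on blood vessels and of the enzyme that processes one of them, were followed through messenger RNA levels of mouse macrophages. They were taken as 4 of the 18472 genes in the 3 deposited tables, matched by symbol, and were chosen by their measured log2 changes between genotypes and treatments in an earlier look at these data. The tables held 72 libraries in 24 groups of 3. Bone marrow-derived macrophages, differentiated for 7 days in supernatant of L929 cells, came from C57BL/6J mice and were labelled Setd1bKO or, as the control, Setd1bHet with wt in the title. Both of these received Dex with LPS, LPS or vehicle, where LPS is bacterial lipopolysaccharide (100 ng/ml for 6 h) and Dex the synthetic glucocorticoid dexamethasone (1 uM for 16 h, with ethanol at 0.1% as its vehicle). RAW264.7 cells, a macrophage line of BALB/c origin, carried a heterozygous Setd1a deletion (Setd1aDel) or were wild type (WT), and the number of clones is not stated. They received Dex with LPS, LPS or vehicle with 16 h of Dex or ethanol in one experiment. A second experiment used 6 h of Dex or ethanol and added Dex alone. The last experiment compared interferon beta (IFNB1, 10 ng/ml) given with LPS for 6 h against LPS.

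Edn1 encodes the precursor of endothelin 1, a peptide that constricts vessels through receptors on smooth muscle and is best known from endothelial cells. Ece1 encodes the membrane protease that cuts big endothelin to its active form. Adm encodes adrenomedullin, a vasodilator peptide that signals through the receptor Calcrl joined to a Ramp protein. Vegfc encodes a growth factor of lymphatic vessels that binds the receptor Flt4 and the coreceptor Nrp2. Macrophages activated by bacterial products are a known source of such peptides. Setd1a and Setd1b are enzymes that place methyl groups on lysine 4 of histone H3.

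The genes lie on 4 chromosomes of GRCm38, all on the plus strand. Edn1 (ENSMUSG00000021367) spans chromosome 13, 42301476 to 42307990, with 5 exons. Ece1 (ENSMUSG00000057530) spans chromosome 4, 137862237 to 137965229, with up to 20 exons. Vegfc (ENSMUSG00000031520) spans chromosome 8, 54077606 to 54187096, with up to 7 exons, and Adm (ENSMUSG00000030790) chromosome 7, 110627661 to 110629820, with 4 exons. The 250 bases before the RefSeq start (GRCm38.p6, plus strand) are shown for the 3 ligands. They lie at chr13:42301226-42301475 for Edn1, chr7:110627407-110627656 for Adm and chr8:54077282-54077531 for Vegfc, 5′ to 3′, with matches to 5 searched motifs in capitals.
Edn1: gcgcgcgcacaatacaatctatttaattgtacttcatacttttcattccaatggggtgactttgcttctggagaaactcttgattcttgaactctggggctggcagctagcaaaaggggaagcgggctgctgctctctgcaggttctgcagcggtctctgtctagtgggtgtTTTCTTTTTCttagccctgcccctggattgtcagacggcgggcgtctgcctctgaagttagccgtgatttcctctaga
Adm: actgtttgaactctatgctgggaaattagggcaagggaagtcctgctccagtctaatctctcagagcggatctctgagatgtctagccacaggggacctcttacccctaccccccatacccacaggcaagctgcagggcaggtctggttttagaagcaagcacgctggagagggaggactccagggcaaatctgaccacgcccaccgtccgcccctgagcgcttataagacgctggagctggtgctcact
Vegfc: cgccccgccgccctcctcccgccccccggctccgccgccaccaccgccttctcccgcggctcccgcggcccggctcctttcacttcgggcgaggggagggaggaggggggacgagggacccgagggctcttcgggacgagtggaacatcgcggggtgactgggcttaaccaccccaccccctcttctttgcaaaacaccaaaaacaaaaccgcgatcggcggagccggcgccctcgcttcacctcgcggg
The motifs were GGG followed by NN and TTTCC (NF-kB), TGACTCA (AP-1), ACGTG (hypoxia response), ACANNNTGT (glucocorticoid response) and GAAA followed by NN and GAAA (interferon response), where N is any base, each searched on both strands, with no overlap between motifs in these windows. The capitals in Edn1, TTTCTTTTTC at 78 to 69 bases before the start, match the interferon response letters on the minus strand, which 2.98% of 32851 windows of the same length also hold. No searched motif matched in the Adm or the Vegfc window. The other motifs were held by 1.41% of all windows for NF-kB, 4.46% for AP-1, 16.6% for hypoxia response and 5.84% for glucocorticoid response. Of the 4 RefSeq starts of Ece1, the window at chr4:137913308-137913557 held GGAAACGCCC (NF-kB letters) and a hypoxia response match on each strand of one palindrome. The window at chr4:137920543-137920792 held ACATCCTGT (glucocorticoid letters) and GAAATAGAAA (interferon letters). A match is a run of letters and was not tested as a site. Over the 250 bases the GC content was 50.4% for Edn1, 56.8% for Adm and 71.6% for Vegfc.

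Levels are in TPM, a transcript abundance scaled per length and to a fixed total per library, so the number of reads behind a value is unknown. Changes are differences of mean log2(TPM + 1) with their standard error, tested with limma over all genes of the experiment, and a gene was called at an adjusted p under 0.05. On this scale the change of a gene near 0 TPM understates its fold. Where a comparison had itself brought a member to attention its value is given without a test. Tests of that member in other comparisons that share libraries with it have p-values that are not independent of the choice. Summed over its listed genes, a marrow-derived library held 837032 to 909974 TPM, and a RAW264.7 library of the 16 h experiment 894029 to 912839 TPM. All members passed the filter of 1 TPM in 3 libraries wherever they were listed, but all WT libraries were under 1 TPM for Ece1 at 16 h and for Ece1 and Vegfc in the IFNB1 experiment. There these genes entered only through Setd1aDel, the group where they are high, and their genotype values are given without a test. Adm is not analysed here in RAW264.7 cells treated with Dex, nor Vegfc in marrow-derived cells. Setd1a means were lower in Setd1aDel than in WT in all 9 RAW264.7 pairs. It was called in the 16 h and IFNB1 experiments (16.1 ± 0.890 TPM in Setd1aDel and 26.7 ± 3.33 TPM in WT under LPS at 16 h, SD, n = 3, adjusted p = 0.000752). It was not called in the 6 h experiment (12.1 ± 1.53 TPM in Setd1aDel and 17.8 ± 7.03 TPM in WT under LPS, adjusted p = 0.126). Setd1b had 10.1 ± 0.359 TPM in the vehicle libraries labelled Setd1bKO and 4.54 ± 0.681 TPM in control (adjusted p = 0.00235). It had 7.51 ± 1.89 TPM in the LPS libraries labelled Setd1bKO and 6.45 ± 1.80 TPM in control (adjusted p = 0.490). With Dex and LPS it had 6.40 ± 1.70 TPM in the libraries labelled Setd1bKO and 5.77 ± 1.67 TPM in control (adjusted p = 0.680). The mean of the targeted gene was therefore not lower under the label Setd1bKO in any treatment, and in vehicle it was higher. The gene-level value sums all exons and cannot show a loss of some of them. Every direction below is thus between the libraries so labelled and control.

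The summed macrophage markers moved with genotype, with 17280 to 17510 TPM in the LPS libraries labelled Setd1bKO against 25060 to 26870 TPM in control (9 of 10 markers listed). It was 11320 to 13080 TPM in Setd1aDel against 4524 to 4875 TPM in WT under LPS in the 16 h experiment (7 of 10 listed). At 6 h under LPS the sum was 6969 to 7470 TPM in Setd1aDel against 7933 to 8078 TPM in WT. Much of the 16 h sum was Lyz2, a lysozyme, with 9207 ± 959 TPM in Setd1aDel and 2208 ± 186 TPM in WT under LPS. Adgre1, which encodes the F4/80 surface marker, was low in RAW264.7 cells of the 16 h and 6 h experiments. Under LPS it did not follow the sum between RAW264.7 genotypes. Under LPS it had 21.9 ± 1.89 TPM in Setd1aDel and 24.0 ± 1.93 TPM in WT at 16 h, and 15.3 ± 0.795 TPM in Setd1aDel and 11.9 ± 0.316 TPM in WT at 6 h. In the IFNB1 experiment it had 18.1 ± 0.321 TPM in Setd1aDel and 90.8 ± 2.86 TPM in WT under LPS. The neutrophil marker S100a8, the one of 8 listed there, had 98.5 to 106 TPM in Setd1aDel and 4.92 to 5.45 TPM in WT under LPS at 16 h, and 46.2 to 54.0 TPM in Setd1aDel and 73.4 to 79.9 TPM in WT at 6 h, so that the genotypes stood in opposite order at these times. In marrow-derived cells it had 155 to 180.1 TPM in the LPS libraries labelled Setd1bKO and 147 to 155 TPM in control. With Dex and LPS it had 449.5 to 521 TPM in the libraries labelled Setd1bKO and 273 to 303 TPM in control, and in vehicle 24.2 to 27.2 TPM in the libraries labelled Setd1bKO and 37.6 to 41.9 TPM in control. The fibroblast marker Pdgfrb, the one of 8 listed in marrow-derived cells, had 4.80 to 5.49 TPM in the LPS libraries labelled Setd1bKO and 8.42 to 9.15 TPM in control. Under Dex and LPS it had 3.09 to 3.80 TPM in the libraries labelled Setd1bKO and 9.82 to 10.7 TPM in control. In vehicle it had only 0.055 to 0.124 TPM in the libraries labelled Setd1bKO and 0.033 to 0.041 TPM in control, so its level rose with LPS in both. Of 11 endothelial markers, only Kdr is listed in the marrow-derived table, with 2.15 to 2.60 TPM in the LPS libraries labelled Setd1bKO and 7.62 to 8.37 TPM in control, and none in that of the 16 h and 6 h experiments. The IFNB1 experiment lists 7 of them, and their sum was 1.0 to 2.0 TPM in Setd1aDel and 3.1 to 4.8 TPM in WT under LPS, with Tie1 at 0 in every library. The part of other cells or of macrophage state in the results below was not tested. In such cultures more cells making a messenger and more messenger per cell cannot be told apart.

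Endothelin 1 messenger was switched on by LPS in marrow-derived macrophages and stayed lower in the libraries labelled Setd1bKO than in control. Edn1 had 71.6, 72.0 and 76.2 TPM in the LPS libraries labelled Setd1bKO and 318, 275 and 287 TPM in the LPS control libraries. Under Dex and LPS it had 74.6, 83.4 and 77.6 TPM in the libraries labelled Setd1bKO and 351, 326 and 350.3 TPM in control. In vehicle it had 0.165, 0.323 and 0.223 TPM in the libraries labelled Setd1bKO and 0.281, 0.483 and 1.12 TPM in control. The genotypes lay apart with LPS and with Dex and LPS, whereas in vehicle all 6 values were near or below 1 TPM and overlapped. The ratio of means was 0.250 under LPS, a log2 change of -1.98 ± 0.13 (adjusted p = 5.55e-09). With Dex and LPS the ratio was 0.229 and the change -2.11 ± 0.13 (adjusted p = 2.84e-09). Of all tested genes, 41.4% were called under LPS and 35% with Dex and LPS. In vehicle, where 25.3% were called, Edn1 was called with -0.36 ± 0.13 (adjusted p = 0.0464), a call that was lost when any one of 5 of the 6 libraries was left out and after scaling.

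LPS raised Edn1 in both genotypes, by 5.91 ± 0.13 on the log2 scale in the libraries labelled Setd1bKO and by 7.53 ± 0.13 in control. Both are descriptions, since Edn1 entered only through groups with LPS. LPS changed most genes, with 83.1% called in the libraries labelled Setd1bKO and 85.3% in control. The LPS change was smaller by 1.62 in the libraries labelled Setd1bKO than in control (difference -1.62 ± 0.18, adjusted p = 1.07e-05, with 21.8% of genes called). With vehicle near 0 in both genotypes, this difference largely restates the genotype gap under LPS. With a pseudocount of 0.1 that difference was -1.03 and was not called (adjusted p = 0.0777), with vehicle values close to 0. Dex on top of LPS gave no call for Edn1 in these cells: 0.10 in the libraries labelled Setd1bKO (95% interval -0.17 to 0.37) and 0.22 in control (95% interval -0.05 to 0.49). The authors' deposited table puts Edn1 at a log2 fold change of -0.0849 in the libraries labelled Setd1bKO and 0.00408 in control for this comparison.

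Adrenomedullin went the opposite way to endothelin. Adm had 86.4, 72.5 and 86.7 TPM in the LPS libraries labelled Setd1bKO and 10.8, 8.43 and 12.0 TPM in the LPS control libraries. Under Dex and LPS it had 62.3, 67.2 and 64.5 TPM in the libraries labelled Setd1bKO and 8.39, 4.80 and 8.23 TPM in control. In vehicle it had 0.189, 0 and 0.0869 TPM in the libraries labelled Setd1bKO and 0, 0 and 0.171 TPM in control. The 2 genotypes were far apart with LPS, by 7.87 times in the means, and with Dex and LPS, by 9.06 times, and overlapped in vehicle. The log2 changes were 2.87 ± 0.16 with LPS and 3.05 ± 0.16 with Dex and LPS. These 2 comparisons and the difference of the LPS changes (2.82 ± 0.23) brought Adm to attention, and so they are descriptions. LPS raised Adm by 6.24 ± 0.16 in the libraries labelled Setd1bKO and by 3.42 ± 0.16 in control. Both are descriptions, since Adm entered only through groups with LPS.

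Dex lowered the LPS-induced level of Adm in control cells, by a change of -0.51 ± 0.16 (adjusted p = 0.0128, 59.9% of genes called). The call was lost without Dex and LPS replicate 2 of control (-0.28) or LPS replicate 3 of control (-0.41). Both control groups also entered the comparisons that brought Adm to attention, so this p is not independent of that choice. In the libraries labelled Setd1bKO the change was -0.33 ± 0.16 and was not called (adjusted p = 0.0941, 52.7% of genes called). The replicate values lay apart in both genotypes, and the 2 Dex changes did not differ beyond their error (0.18, 95% interval -0.30 to 0.66, 6.21% of genes called). The median gene had a change of 0.15 in the libraries labelled Setd1bKO and 0.18 in control, which scaling moved by -0.16 and -0.19, and with scaling Adm was called in the libraries labelled Setd1bKO too (-0.51). In the authors' deposited table Adm had a log2 fold change of -0.524 in the libraries labelled Setd1bKO (adjusted p = 0.00428) and -0.737 in control (adjusted p = 0.000493).

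The converting enzyme stayed in a narrow range in marrow-derived macrophages. Ece1 had 3.13, 2.88 and 2.96 TPM in the LPS libraries labelled Setd1bKO and 3.69, 4.09 and 4.05 TPM in the LPS control libraries. This gap of -0.31 ± 0.11 was called (adjusted p = 0.0297) but was lost without any one of 4 of the 6 libraries. Over all 18 libraries Ece1 lay between 2.69 and 4.09 TPM, and neighbouring groups in the order of its means overlapped throughout. Not all pairs overlapped: control with Dex and LPS lay below control with LPS. That Dex change was -0.21 ± 0.11 and was not called (adjusted p = 0.0959). It was called with scaling (-0.39) and when only the compared groups were fitted. The authors' deposited table has -0.496 for it (adjusted p = 0.00381). In the libraries labelled Setd1bKO the Dex change was 0.01 (95% interval -0.22 to 0.23), and the authors' value -0.181 (adjusted p = 0.428). The changes of Ece1 with LPS were -0.04 in the libraries labelled Setd1bKO (95% interval -0.26 to 0.19) and 0.10 in control (95% interval -0.12 to 0.33). LPS lowered the median of all genes, by -0.37 in the libraries labelled Setd1bKO and -0.49 in control, and once that was scaled out Ece1 was called higher with LPS, by 0.26 in the libraries labelled Setd1bKO and 0.53 in control.

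**Figure D1:**
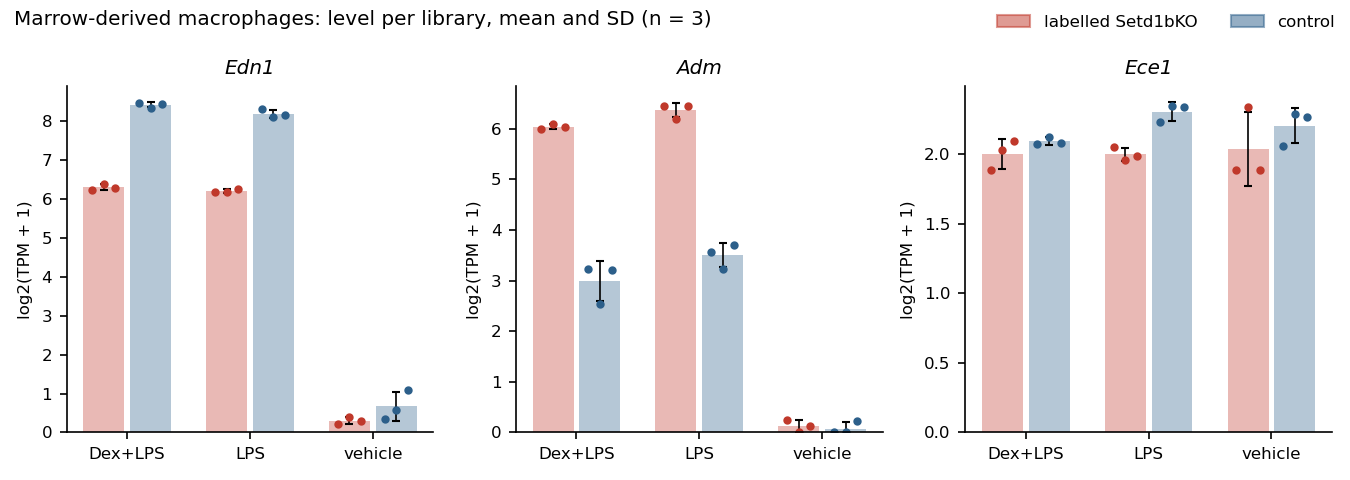
Levels of Edn1, Adm and Ece1 in marrow-derived macrophages as log2(TPM + 1), with 1 point per library, bars for the mean of 3 and error bars for the SD, the libraries labelled Setd1bKO left of control. With LPS, Edn1 is lower and Adm higher in the libraries labelled Setd1bKO (73.3 and 81.9 TPM) than in control (293 and 10.4 TPM), and both are near 0 in vehicle.

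In RAW264.7 cells the Setd1a deletion went with more endothelin messenger once LPS was present. In the 16 h experiment Edn1 had 17.0, 17.8 and 15.8 TPM in Setd1aDel with LPS and 3.58, 2.86 and 2.34 TPM in WT with LPS. With Dex and LPS it had 59.29, 59.26 and 59.25 TPM in Setd1aDel and 12.9, 15.7 and 13.6 TPM in WT. In vehicle it was listed at 0 in all 3 WT libraries and 2 of the 3 Setd1aDel libraries, with 0.0601 TPM in the other. The genotypes did not overlap in either LPS condition, and Setd1aDel with LPS alone stood above WT with Dex and LPS. The means were 5.76 times apart with LPS (2.20 ± 0.09, adjusted p = 1.1e-11) and 4.21 times apart with Dex and LPS (2.00 ± 0.09, adjusted p = 2.77e-11). The WT libraries here also gave the Dex change that brought Edn1 to attention, so these p-values are not independent of that choice. Of all genes, 59.9% were called with LPS and 64.6% with Dex and LPS. In vehicle, where 48.2% were called, Edn1 was not (0.03, 95% interval -0.16 to 0.22).

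In the 6 h experiment Edn1 had 19.6, 18 and 20.2 TPM in Setd1aDel with LPS and 7.96, 6.38 and 5.78 TPM in WT with LPS. Under Dex and LPS it had 36.9, 43.1 and 38.6 TPM in Setd1aDel and 25.5, 30.8 and 30.4 TPM in WT. With Dex alone it had 0.725, 0.490 and 0.829 TPM in Setd1aDel, and in WT it was listed at 0, 0 and 0.265 TPM. All values of Setd1aDel lay above those of WT in these 3 treatments, but with Dex and LPS the means were only 1.37 times apart. The change was 1.40 ± 0.12 with LPS (21.5% of genes called) and 0.44 ± 0.12 with Dex and LPS (adjusted p = 0.0105, 26.2% called). The LPS value is a description, since it makes up most of the difference of LPS changes that brought Edn1 to attention. The call with Dex and LPS was lost without Dex and LPS replicate 2 of Setd1aDel (0.38) or Dex and LPS replicate 1 of WT (0.36). With Dex alone it was 0.63 ± 0.12 (adjusted p = 0.0013, 13.6% called), and in vehicle 0.20 (95% interval -0.06 to 0.45, 22.2% called). The vehicle values were 0.320, 0.140 and 0 TPM in Setd1aDel, and WT was listed at 0 in all 3.

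LPS induced Edn1 in both RAW264.7 genotypes at 16 h and at 6 h. WT rose to 2.93 ± 0.622 TPM at 16 h and 6.71 ± 1.13 TPM at 6 h (SD, n = 3), against 0 in its vehicle libraries, and no fold is given for it. In Setd1aDel the change was 4.13 ± 0.09 (16 h) and 4.14 ± 0.12 (6 h). These are descriptions, since Edn1 entered only through groups with LPS. In the 16 h experiment the LPS change was larger in Setd1aDel than in WT by 2.17 ± 0.13 (adjusted p = 2.71e-09, 33.4% of genes called). With vehicle at or near 0, this largely restates the genotype gap under LPS. It also shares the WT LPS libraries with the Dex comparison that brought Edn1 to attention. In the 6 h experiment the difference of LPS changes was 1.21 ± 0.17 and had brought Edn1 to attention, so it is a description. With a pseudocount of 0.1 it was 0.41. The median gene fell with LPS by 0.41 in Setd1aDel and 0.38 in WT at 16 h, and by 0.21 in Setd1aDel and 0.24 in WT at 6 h.

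Dex raised Edn1 further on top of LPS in RAW264.7 cells. In the 16 h experiment its mean was 3.52 times as high with Dex and LPS as with LPS in Setd1aDel (1.76 ± 0.09, adjusted p = 3.58e-10, 44.7% of genes called). In WT it was 4.81 times as high (1.95 ± 0.09, a description, since this comparison brought Edn1 to attention, 47.6% called). The 2 Dex changes did not differ beyond error there (-0.19, 95% interval -0.47 to 0.08, 10.6% of genes called). In the 6 h experiment the ratio was 2.05 in Setd1aDel (1.00 ± 0.12, adjusted p = 2.24e-06, 32.9% called; 1.03 and not called with a pseudocount of 0.1, adjusted p = 0.0697) and 4.31 in WT (1.96 ± 0.12, adjusted p = 2.73e-10, 25.3% called). Here the Dex change was smaller in Setd1aDel than in WT by 0.96 (difference -0.96 ± 0.17, adjusted p = 0.00304, 5.29% called). That difference was -1.07 and not called with a pseudocount of 0.1 (adjusted p = 0.339). Its LPS libraries also entered the 6 h comparison that brought Edn1 to attention, so its p is not independent of that choice. In the authors' deposited table the log2 fold changes at 6 h were 0.962 in Setd1aDel and 2.06 in WT, and at 16 h 1.74 in Setd1aDel and 2.15 in WT.

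Without LPS, Edn1 stayed below 1 TPM with Dex. Its mean was 0.681 ± 0.173 TPM with Dex and 0.153 ± 0.160 TPM with vehicle in Setd1aDel, 4.44 times apart, which was called (0.55 ± 0.12, adjusted p = 0.00179, 30.2% of genes called). This ratio is above the 2.05 under LPS in the same cells, while the log2(TPM + 1) change is below it. In WT it was 0.0883 ± 0.153 TPM with Dex, against 0 in vehicle (0.11, 95% interval -0.14 to 0.37, 36.8% called). In WT the Dex change under LPS exceeded that without LPS by 1.85 ± 0.17 (adjusted p = 1.87e-07, 30.4% called), which was 1.48 and not called with a pseudocount of 0.1 (adjusted p = 0.0708). With WT at or near 0 without LPS, this largely restates the Dex change under LPS. In Setd1aDel the Dex change under LPS minus that without LPS was 0.45 ± 0.17 and was not called (adjusted p = 0.0539, 30.1% called).

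Vegfc was higher in Setd1aDel in every treatment, with or without LPS. In the 16 h experiment it had 35.2, 36.0 and 36.5 TPM in Setd1aDel with Dex and LPS and 1.88, 1.71 and 1.78 TPM in WT. With LPS it had 38.1, 34.9 and 31.9 TPM in Setd1aDel and 2.59, 2.02 and 1.97 TPM in WT. In vehicle it had 4.61, 4.57 and 4.43 TPM in Setd1aDel and 0.446, 0.396 and 0.526 TPM in WT. Every Setd1aDel library stood above every WT library, and Setd1aDel in vehicle stood above WT with LPS. The means were 15.9 times apart with LPS (3.49 ± 0.07, adjusted p = 3.5e-15) and 9.94 times apart in vehicle (1.93 ± 0.07, adjusted p = 6.84e-12). With Dex and LPS they were 20.1 times apart (3.73 ± 0.07), a comparison that brought Vegfc to attention.

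In the 6 h experiment Vegfc had 57.5, 54.4 and 53.3 TPM in Setd1aDel with LPS and 7.52, 8.05 and 7.91 TPM in WT. Under Dex and LPS it had 37.4, 35.7 and 26.7 TPM in Setd1aDel and 6.53, 6.27 and 6.68 TPM in WT. In vehicle it had 7.48, 8.37 and 6.76 TPM in Setd1aDel and 0.709, 0.511 and 0.551 TPM in WT. Again no Setd1aDel library overlapped WT under the same treatment, while vehicle-treated Setd1aDel overlapped WT with LPS. These 3 comparisons brought Vegfc to attention, with changes of 2.67 ± 0.10 with LPS, 2.18 ± 0.10 with Dex and LPS and 2.42 ± 0.10 in vehicle. With Dex alone, which did not, Vegfc had 4.94, 5.21 and 5.93 TPM in Setd1aDel and 0.543, 0.815 and 0.549 TPM in WT (1.96 ± 0.10, adjusted p = 4.53e-11).

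LPS raised Vegfc in both genotypes at 16 h and at 6 h. At 16 h its mean was 7.71 times as high with LPS as with vehicle in Setd1aDel (2.70 ± 0.07, adjusted p = 7.04e-15, 84.8% of genes called) and 4.81 times as high in WT (1.13 ± 0.07, adjusted p = 3.96e-10, 83.5% called). The difference between genotypes was 1.57 ± 0.10 (adjusted p = 6.56e-09). As ratios of means the genotypes lie nearer to each other (7.71 and 4.81). The added 1 weighs on the WT means of 0.456 TPM in vehicle and 2.20 TPM with LPS. At 6 h the ratios were 7.31 in Setd1aDel (2.72 ± 0.10, adjusted p = 7.05e-15, 69.6% called) and 13.3 in WT (2.47 ± 0.10, adjusted p = 2.79e-14, 71.8% called), and the difference was 0.24 (95% interval -0.06 to 0.55, 5.6% called). The ratio of means and the log2(TPM + 1) change thus order the genotypes differently at 6 h, where WT vehicle values are below 1 TPM. The 6 h groups also entered the comparisons that brought Vegfc to attention, so their p-values are not independent of that choice. The 2 experiments differ in the time with ethanol and were not tested against each other.

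Dex lowered Vegfc on top of LPS in Setd1aDel at 6 h, with 33.3 ± 5.76 TPM with Dex and LPS and 55.1 ± 2.17 TPM with LPS (-0.72 ± 0.10, adjusted p = 1.63e-05). Both groups also entered the genotype comparisons that brought Vegfc to attention, so this p is not independent of that choice. In WT the values were 6.50 ± 0.207 TPM with Dex and LPS and 7.83 ± 0.275 TPM with LPS (-0.24 ± 0.10, adjusted p = 0.104). The difference of these changes was -0.49 ± 0.15 and was not called (adjusted p = 0.0570). At 16 h the change was 0.04 in Setd1aDel (95% interval -0.11 to 0.19) and -0.19 ± 0.07 in WT (adjusted p = 0.0364), and the WT call was lost without Dex and LPS replicate 2 (-0.17) or 3 (-0.19) or LPS replicate 1 (-0.10). Dex alone lowered Vegfc in Setd1aDel (-0.42 ± 0.10, adjusted p = 0.00384) and gave 0.04 in WT (95% interval -0.18 to 0.25), and the difference of -0.46 ± 0.15 was not called (adjusted p = 0.208, 0.29% of genes called). The authors' deposited table has a log2 fold change of -0.796 for Dex with LPS over LPS in Setd1aDel at 6 h (adjusted p = 4.05e-11). In WT at 6 h it has -0.315 (adjusted p = 0.1235). At 16 h it has -0.029 in Setd1aDel (adjusted p = 0.7885) and -0.417 in WT (adjusted p = 0.00581).

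Ece1 separated the RAW264.7 genotypes whatever the treatment. In the 16 h experiment it had 6.31, 6.03 and 6.57 TPM in Setd1aDel with Dex and LPS and 0.191, 0.368 and 0.362 TPM in WT. With LPS it had 6.99, 8.48 and 8.64 TPM in Setd1aDel and 0.346, 0.511 and 0.423 TPM in WT. In vehicle it had 7.84, 8.0 and 6.82 TPM in Setd1aDel and 0.461, 0.356 and 0.440 TPM in WT. All WT values were below 1 TPM and all Setd1aDel values above 6 TPM. The means were 20.5 times apart with Dex and LPS (2.48 ± 0.08), 18.8 times with LPS (2.66 ± 0.08) and 18 times in vehicle (2.59 ± 0.08), as descriptions.

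In the 6 h experiment Setd1aDel again stood above WT in every treatment. Ece1 ranged over 7.65 to 8.87 TPM in Setd1aDel with Dex and LPS and 0.566 to 1.09 TPM in WT. With LPS it ranged over 6.51 to 9.12 TPM in Setd1aDel and 0.966 to 2.05 TPM in WT, and in vehicle over 4.49 to 5.74 TPM in Setd1aDel and 0.339 to 0.765 TPM in WT. These 3 comparisons brought Ece1 to attention (means 8.98, 5.65 and 10.5 times apart). With Dex alone, which did not, it ranged over 2.85 to 3.58 TPM in Setd1aDel and 0.153 to 0.510 TPM in WT (1.65 ± 0.16, adjusted p = 5.21e-07).

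Treatment changes of Ece1 were small beside these gaps. At 16 h its change with LPS was 0.08 in Setd1aDel (95% interval -0.10 to 0.25) and 0.01 in WT (95% interval -0.17 to 0.18), and after scaling 0.47 with a call in Setd1aDel. At 6 h LPS raised it by 0.52 ± 0.16 in Setd1aDel (adjusted p = 0.00795) and 0.68 ± 0.16 in WT (adjusted p = 0.00103). These p-values are not independent of the choice, since the groups also entered the comparisons that brought Ece1 to attention. Dex lowered it under LPS in Setd1aDel at 16 h (-0.30 ± 0.08, adjusted p = 0.00674) and gave 0.03 at 6 h (95% interval -0.31 to 0.37). Dex alone lowered it in Setd1aDel (-0.61 ± 0.16, adjusted p = 0.00765) and gave -0.19 in WT (95% interval -0.53 to 0.15). In Setd1aDel the Dex change under LPS exceeded that without LPS by 0.64 ± 0.23 (adjusted p = 0.0433), a call that was lost without any one of 8 of the 12 libraries, with scaling, with a pseudocount of 0.1 and with the replicate block. With a pseudocount of 0.1 the Setd1aDel calls for LPS at 6 h (adjusted p = 0.0971), Dex alone (adjusted p = 0.0806) and Dex under LPS at 16 h (adjusted p = 0.111) were lost as well.

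Set against vehicle, Dex with LPS left the ligands induced. Edn1 was higher by 6.01 ± 0.13 in the libraries labelled Setd1bKO and 7.75 ± 0.13 in control, where 78.5% of genes were called in the libraries labelled Setd1bKO and 80% in control. Adm was higher by 5.91 ± 0.16 in the libraries labelled Setd1bKO and 2.91 ± 0.16 in control. Vegfc was higher by 2.74 ± 0.07 in Setd1aDel and 0.94 ± 0.07 in WT at 16 h, where 82% of genes were called in Setd1aDel and 78.9% in WT. At 6 h it was higher by 2.00 ± 0.10 in Setd1aDel and 2.24 ± 0.10 in WT, where 63.6% were called in Setd1aDel and 67% in WT. Ece1 fell by 0.23 in Setd1aDel at 16 h (adjusted p = 0.0177), a direction that turned to 0.11 with scaling.

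**Figure D2:**
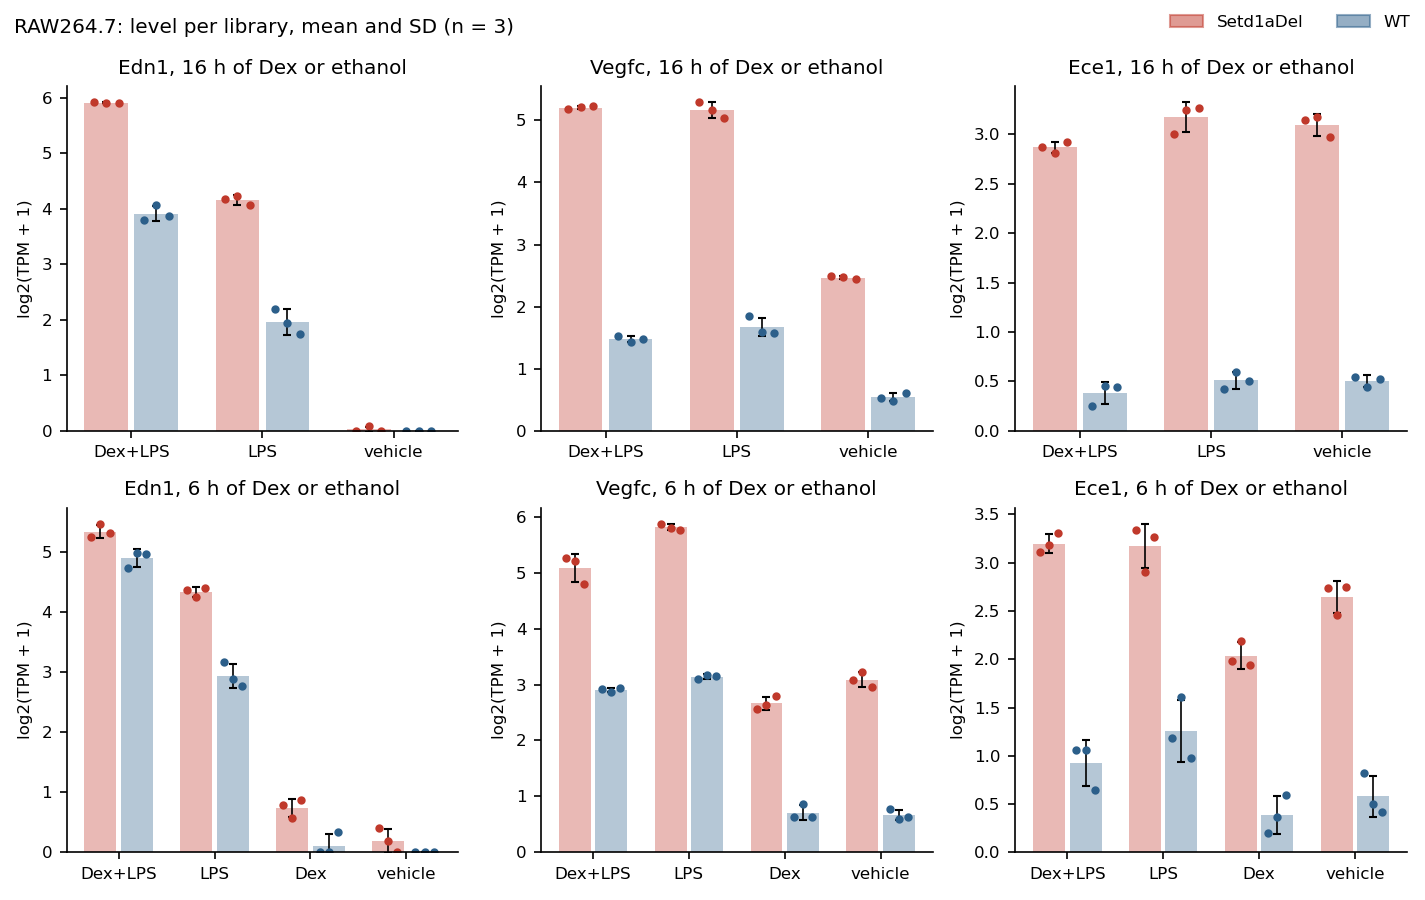
Levels of Edn1, Vegfc and Ece1 in RAW264.7 cells as log2(TPM + 1) in the 16 h (top) and 6 h (bottom) experiments, with 1 point per library, bars for the mean of 3 and error bars for the SD, Setd1aDel left of WT. Edn1 is near 0 in vehicle in both genotypes, whereas Vegfc and Ece1 are higher in Setd1aDel in every pair, for example at 4.53 and 7.55 TPM in Setd1aDel and 0.456 and 0.419 TPM in WT in vehicle at 16 h.

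All 4 members are listed in the IFNB1 experiment, whose values have 1 decimal. Edn1 had 40.8, 43.3 and 39.8 TPM in Setd1aDel with IFNB1 and LPS and 6.3, 7.0 and 5.8 TPM in Setd1aDel with LPS. In WT it had 3.2, 3.6 and 3.8 TPM with IFNB1 and LPS and 0.8, 0.7 and 1.3 TPM with LPS. IFNB1 libraries lay above LPS libraries in both genotypes, and Setd1aDel with LPS stood above WT with both agents. The means were 6.49 times apart in Setd1aDel (2.52 ± 0.11, adjusted p = 1.48e-08, 54.1% of genes called) and 3.79 times apart in WT (1.24 ± 0.11, adjusted p = 1.2e-05, 33% called). The IFNB1 change was larger in Setd1aDel by 1.28 ± 0.16 (adjusted p = 0.000748, 11.3% called), which was 0.83 and not called with a pseudocount of 0.1 (adjusted p = 0.0564). The authors' deposited table has log2 fold changes of 2.90 in Setd1aDel and 2.04 in WT.

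Adm was the one member that was lower in Setd1aDel. With LPS it had 2.2, 1.1 and 1.8 TPM in Setd1aDel and 3.8, 4.3 and 3.3 TPM in WT, without overlap (-0.85 ± 0.18, adjusted p = 0.00342). With IFNB1 and LPS it had 5.0, 6.0 and 5.2 TPM in Setd1aDel and 3.7, 5.6 and 6.3 TPM in WT, which overlapped (0.07, 95% interval -0.34 to 0.47). IFNB1 raised it in Setd1aDel (1.26 ± 0.18, adjusted p = 0.000193), and in WT the change was 0.35 ± 0.18 (adjusted p = 0.173). The difference of 0.91 ± 0.26 was called (adjusted p = 0.0473) but was lost without any one of 10 of the 12 libraries. In the authors' deposited table the log2 fold change was 1.84 in Setd1aDel (adjusted p = 3.62e-11) and 0.547 in WT (adjusted p = 0.0435).

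Vegfc and Ece1 were higher in Setd1aDel here too, as descriptions, since both entered only through Setd1aDel. Vegfc had 16.2, 19.1 and 18.1 TPM in Setd1aDel with LPS and 0.1, 0.4 and 0.6 TPM in WT with LPS (3.80 ± 0.13). With IFNB1 and LPS it had 22.4, 23.9 and 25.1 TPM in Setd1aDel and 0.6, 0.7 and 0.5 TPM in WT (3.95 ± 0.13). Ece1 had 6.4, 7.6 and 7.2 TPM in Setd1aDel with LPS and was listed at 0 in all 3 WT libraries. With IFNB1 and LPS it had 5.6, 6.5 and 7.4 TPM in Setd1aDel and 0, 0.2 and 0 TPM in WT (2.81 ± 0.12). Of all genes, 42.6% were called between the genotypes with LPS and 54.2% with IFNB1 and LPS. IFNB1 raised Vegfc in Setd1aDel by 0.40 ± 0.13 (adjusted p = 0.0203), a call lost with a pseudocount of 0.1 or without IFNB1 and LPS replicate 2 (0.40) or 3 (0.36) or LPS replicate 1 (0.34) of Setd1aDel. It left Ece1 at -0.11 in Setd1aDel (95% interval -0.37 to 0.15).

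**Figure D3:**
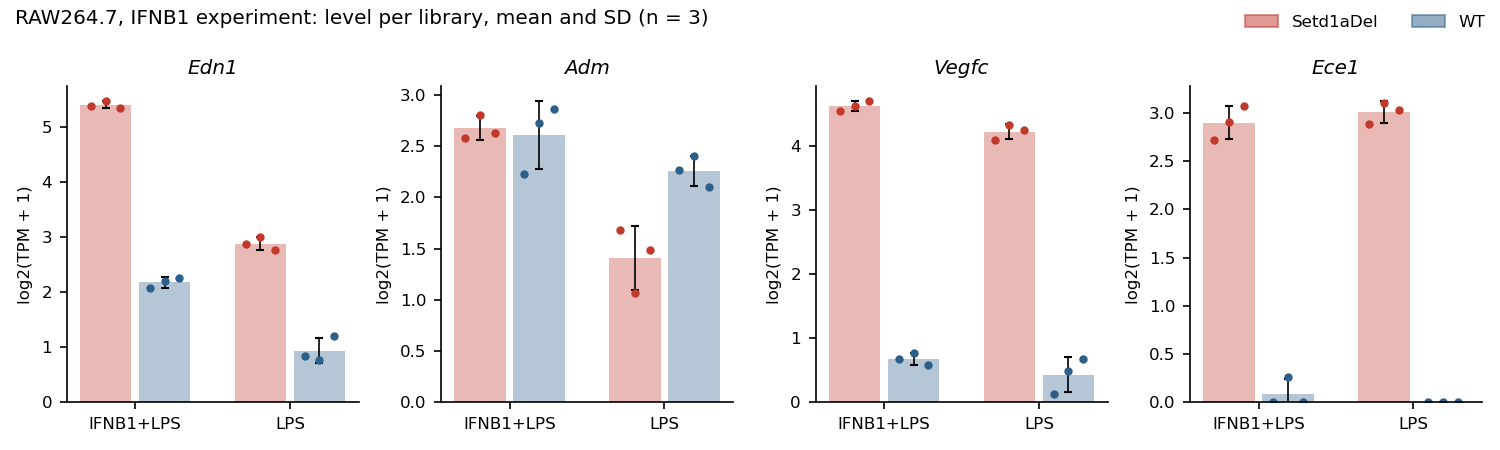
Levels of the 4 members in RAW264.7 cells of the IFNB1 experiment as log2(TPM + 1), with 1 point per library, bars for the mean of 3 and error bars for the SD, Setd1aDel left of WT and IFNB1 with LPS left of LPS. Edn1 is at 41.3 TPM in Setd1aDel with IFNB1 and LPS and 3.53 TPM in WT, and Adm is the member with a lower mean in Setd1aDel than in WT with LPS (1.70 and 3.80 TPM).

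**Figure D4:**
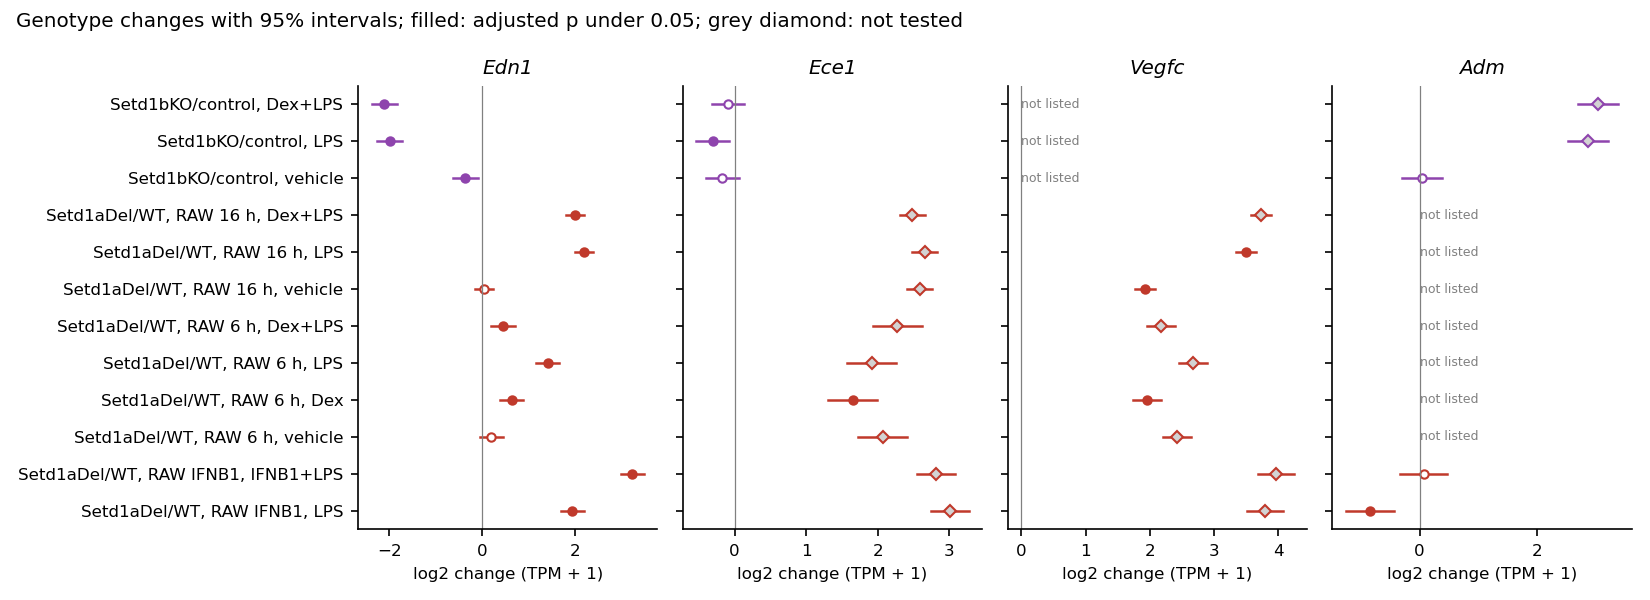
Genotype changes of each member on the log2(TPM + 1) scale (points) with 95% intervals (lines), filled where the adjusted p was under 0.05, open where not, grey diamonds where no test is given (the comparison brought the member to attention, or the member entered only through Setd1aDel). Edn1 and Adm lie on opposite sides of 0 in the libraries labelled Setd1bKO with LPS (-1.98 and 2.87), and Vegfc and Ece1 lie above 0 in each RAW264.7 comparison. The Edn1 point for LPS at 6 h is a description whatever its fill.

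**Figure D5:**
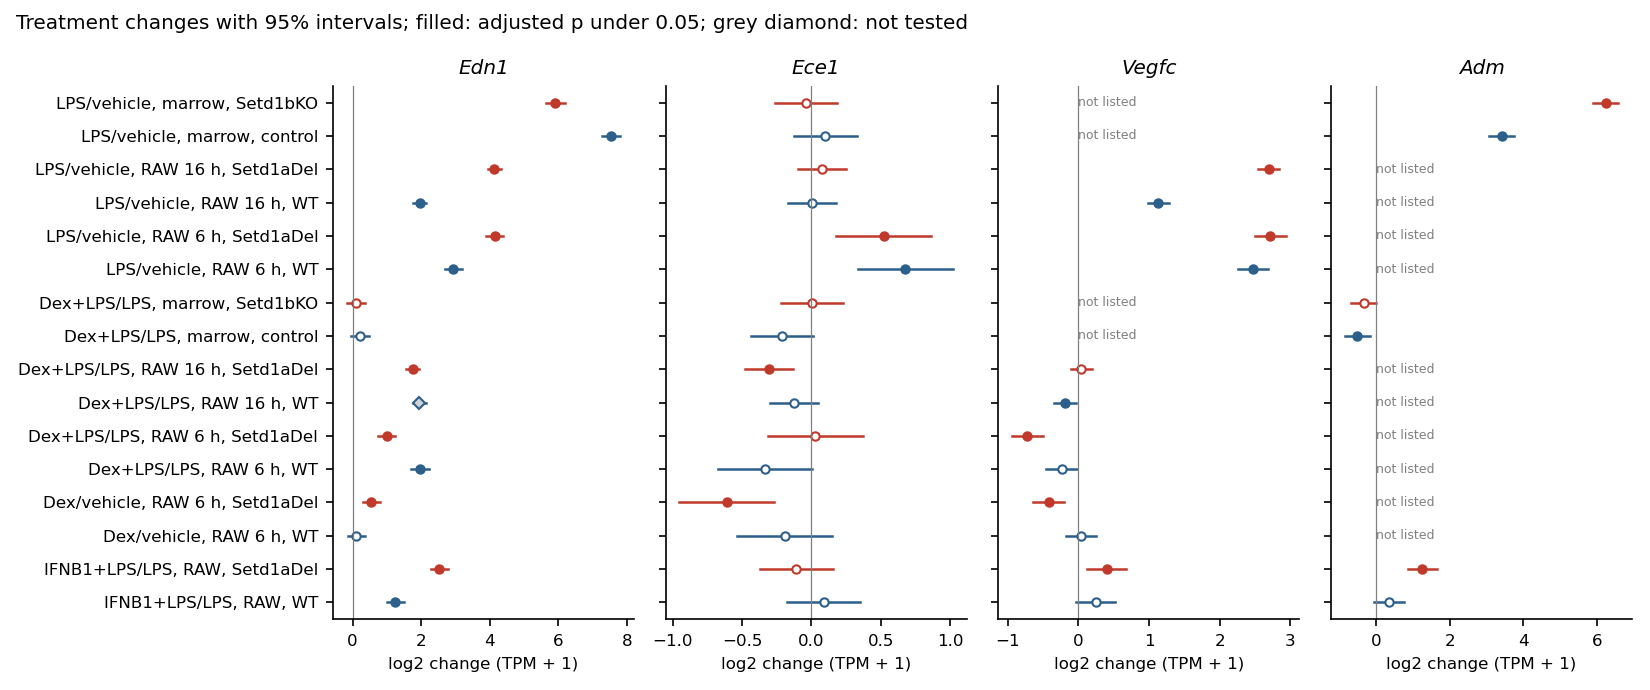
Changes with LPS, with Dex and with IFNB1 on the log2(TPM + 1) scale (points) with 95% intervals (lines), the mutant or deleted genotype (red) above its control or WT (blue), filled where the adjusted p was under 0.05, open where not, grey diamonds where not tested. The LPS over vehicle points of Edn1 and Adm are descriptions whatever their fill, since these genes entered only through groups with LPS. For Dex on top of LPS, Edn1 lies at 1.00 to 1.96 in RAW264.7 cells, and at 0.10 and 0.22 in marrow-derived cells, where neither was called.

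The receptors and other pathway genes came from a list of 64 ligands, receptors and processing enzymes, of which 19 are listed in the marrow-derived table, 16 in the 16 h and 6 h table and 30 in the IFNB1 table. In marrow-derived cells, 2 of 6 listed receptors were called lower and none higher in the vehicle libraries labelled Setd1bKO, against 15.4% lower and 9.89% higher of all genes. With LPS 4 of 6 were lower and none higher, with a median change of -0.50 against 0.10 over all genes, of which 12.4% were lower and 29% higher. Under Dex and LPS 5 of 6 were lower and none higher, with a median of -0.69 against 0.07 over all genes, of which 11.5% were lower and 23.5% higher. Scaling moved the median of all genes with LPS by -0.10. Calcrl, the receptor of adrenomedullin, had 21.9 ± 1.17 TPM in the LPS libraries labelled Setd1bKO and 38.4 ± 0.485 TPM in control (-0.78 ± 0.09). Kdr, a receptor for vascular growth factors, had 2.32 ± 0.244 TPM in the LPS libraries labelled Setd1bKO and 8.04 ± 0.383 TPM in control (-1.45 ± 0.08). Of 5 ligands, 1 was higher and 2 were lower with LPS, among them the platelet-derived growth factor Pdgfb (8.24 ± 0.678 TPM in the libraries labelled Setd1bKO and 23.3 ± 0.550 TPM in control). Of 8 processing enzymes, none was higher and 2 were lower with LPS. With Dex and LPS Ccbe1, a cofactor in the maturation of Vegfc, had 0.886 ± 0.327 TPM in the libraries labelled Setd1bKO and 5.02 ± 0.273 TPM in control (-1.69 ± 0.13).

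In RAW264.7 cells 3 of 4 listed receptors were higher and none lower in Setd1aDel than in WT in vehicle at 16 h, with a median of 1.33 against -0.08 over all genes, of which 15.3% were higher and 32.9% lower. With LPS 2 were higher and 2 lower, with a median of 0.31 against -0.11 over all genes (17.5% higher, 42.4% lower). Under Dex and LPS 2 were higher and none lower, with a median of 0.35 against -0.14 (17% higher, 47.6% lower). Flt1 is among the higher receptors in each of these 16 h counts. It entered there only through Setd1aDel, with WT means under 1 TPM, so its part in the counts is a description. At 6 h 2 of 4 were higher and none lower in vehicle, where 22.2% of all genes were called in either direction. The median was 0.43 against -0.06 over all genes. With LPS 2 were higher and 1 lower (median 0.12 against -0.02), where 21.5% of all genes were called in either direction. Under Dex and LPS 1 of 4 was higher and none lower (median 0.03 against 0.01). That is near the 26.2% of all genes called in either direction there. Flt1, a receptor for the related factor Vegfa, had 16.9 ± 0.555 TPM in Setd1aDel with LPS at 16 h and 0.261 ± 0.0346 TPM in WT (3.82 ± 0.05, a description). At 6 h it had 8.41 ± 0.0920 TPM in Setd1aDel with LPS and 3.6 ± 0.351 TPM in WT (1.03 ± 0.09). Calcrl had 60.0 ± 2.74 TPM in Setd1aDel and 13.6 ± 0.882 TPM in WT in vehicle at 16 h, and 58.0 ± 2.29 TPM in Setd1aDel and 34.3 ± 1.00 TPM in WT at 6 h. Vegfa, the founding factor of the family, went the opposite way to Vegfc under LPS at 6 h, with 28.4 ± 0.377 TPM in Setd1aDel and 44.9 ± 3.01 TPM in WT (-0.64 ± 0.11). Dex lowered Vegfa under LPS as well, by a change of -0.72 ± 0.11 in Setd1aDel and -1.05 ± 0.11 in WT at 6 h. In the IFNB1 experiment 10 of 18 tested list genes were higher and 4 lower in Setd1aDel with LPS, against 17.7% higher and 24.9% lower of all genes. Flt1, among the higher, entered only through Setd1aDel, and Npr1, among the lower, only through WT, so both are descriptions. Npr1, a natriuretic peptide receptor, had 0.0333 ± 0.0577 TPM in Setd1aDel and 6.30 ± 0.50 TPM in WT with LPS. Hbegf, an epidermal growth factor family ligand, had 7.80 ± 0.520 TPM in Setd1aDel and 1.47 ± 0.231 TPM in WT.

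Partners of the members were looked up beside that rule, after their values were seen. Flt4, the receptor of Vegfc, is listed at 0 in all libraries of the IFNB1 experiment, while Nrp2 had 214 ± 17.2 TPM in Setd1aDel with LPS and 159 ± 8.13 TPM in WT. Ramp2, a partner of Calcrl, had 0.400 ± 0.100 TPM in Setd1aDel with LPS and 0 in WT, and Ramp3 had 0 in Setd1aDel and 0.0333 ± 0.0577 TPM in WT. Ece2, a relative of Ece1, had 59.8 ± 5.57 TPM in Setd1aDel and 70.1 ± 3.1 TPM in WT there, above Ece1 in both genotypes per length.

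The genes whose log2(TPM + 1) followed each member most closely were ranked by Pearson r over libraries that share treatments and genotypes, as a description. Over the 18 marrow-derived libraries Edn1 was followed by Shisa3 (r = 0.996), Traf1 (r = 0.995) and Itgal (r = 0.995), and Adm by Btg1 (r = 0.993), Il4ra (r = 0.989) and Kdm5c (r = 0.983). Ece1, which varied little there, had no r above 0.755, reached by Adap2. Over the 42 RAW264.7 libraries of the 16 h and 6 h experiments Edn1 was followed by Ets2 (r = 0.958), Lima1 (r = 0.950) and Sod2 (r = 0.945). Vegfc was followed by Tubb2a (r = 0.934), Slpi (r = 0.930) and Mfap3l (r = 0.917), and Ece1 by Hspb8 (r = 0.950), Spink5 (r = 0.920) and Vcpkmt (r = 0.889). Among the members themselves r was 0.845 for Vegfc and Ece1, 0.741 for Edn1 and Vegfc and 0.356 for Edn1 and Ece1 in RAW264.7 cells. In marrow-derived cells it was 0.719 for Edn1 and Adm, which both respond to LPS, although their genotype changes have opposite signs.

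Ordered by mean, Edn1 in marrow-derived cells ran as control with Dex and LPS, control with LPS, the libraries labelled Setd1bKO with Dex and LPS and the same with LPS, and the vehicle groups last. The groups labelled Setd1bKO overlapped each other with and without Dex under LPS, as did the vehicle groups, and other neighbours were apart. For Adm all neighbours were apart except the vehicle groups, with the LPS libraries labelled Setd1bKO on top. For Vegfc at 16 h only the 2 top groups, Setd1aDel with Dex and LPS and Setd1aDel with LPS, overlapped, and at 6 h WT with LPS overlapped Setd1aDel in vehicle, as did the lowest pair, WT with Dex and WT in vehicle. Across members, the highest group mean was 342 TPM for Edn1 (control with Dex and LPS), 81.9 TPM for Adm (the LPS libraries labelled Setd1bKO), 55.1 TPM for Vegfc (Setd1aDel with LPS at 6 h) and 8.19 TPM for Ece1 (Setd1aDel with Dex and LPS at 6 h). These means come from tables that were normalized separately.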

How the data were processed

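Messenger RNA was sequenced from 72 libraries with a stranded kit, per the labels' protocols. The values used are TPM per gene as deposited by the authors, with Salmon 0.10.2, DESeq2, R 3.6.0 and GRCm38.p6 (mm10) named in the submitters' processing notes. For the IFNB1 experiment the TPM unit was read from the values. Log2 fold changes and adjusted p-values that the authors deposited cover only the effect of Dex or IFNB1 on top of LPS. TPM carries no read depth, so counting error is unknown. Each deposited table has its own normalization, and no test crosses experiments.

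For each experiment log2(TPM + 1) was modelled with limma 3.58.1 (R 4.3.3; group means, eBayes with trend). A gene entered if 3 libraries reached 1 TPM, which left 9159 genes in marrow-derived cells, 8964 at 16 h, 8981 at 6 h and 10923 with IFNB1. Two-sided p-values were adjusted by Benjamini-Hochberg over those genes in each of 44 comparisons. Replicates are called biological, but separate cultures or animals are not stated, so p-values measure the spread between libraries. The members and lists were chosen with earlier results of these data known. A member has no p where it was among the 8 highest or 8 lowest called changes with 5 TPM or more in the higher group and, between 2 groups, no overlap. Named pathway genes are up to 4 called genes per comparison with the largest change and 5 TPM or more in the higher group, and genes like a member are the 3 with the highest r. Coordinates come from GENCODE vM21 (GRCm38) and promoter windows from RefSeq (GRCm38.p6), where all 4 members matched. Alternatives were another pseudocount (0.1), dropping the filter, scaling by median of ratios, a replicate block, fitting the compared groups alone and leaving out each library. The fit was tested on simulated data. No 2 libraries were identical, the lowest Pearson r between replicates was 0.989, 0 sample columns stayed unmapped, and no label gives a batch or date.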

Additional observations from a re-analysis of the deposited data

Results flagged for a closer look

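For 10 results the effect of a treatment on a member differed between genotypes, or that of Dex differed with and without LPS, on the log2(TPM + 1) scale. For 8 of them a test of the difference itself was called, and the other 2 are descriptions. Edn1 was near 0 without LPS, so its LPS differences largely restate the genotype gap under LPS. Likewise its Dex difference with and without LPS in WT largely restates the Dex change under LPS. Several tested differences also share libraries with a comparison that chose the member. The LPS change in the libraries labelled Setd1bKO minus that in control was -1.62 for Edn1 and 2.82 for Adm. The LPS change in Setd1aDel minus that in WT at 16 h was 2.17 for Edn1 and 1.57 for Vegfc, and at 6 h 1.21 for Edn1. As ratios of means the Vegfc changes lie nearer to each other. The LPS values for Adm and for Edn1 at 6 h are the descriptions, since these comparisons chose the genes. The Dex change under LPS in Setd1aDel minus that in WT at 6 h was -0.963 for Edn1. The Dex change under LPS minus that without LPS at 6 h was 1.85 for Edn1 in WT and 0.637 for Ece1 in Setd1aDel. The IFNB1 change in Setd1aDel minus that in WT was 1.28 for Edn1 and 0.914 for Adm. Several of these tested calls depended on the processing. With a pseudocount of 0.1 the call was lost for Edn1 in marrow-derived cells, for both Dex differences of Edn1 at 6 h, for Edn1 with IFNB1 and for Ece1. The call for Adm with IFNB1 was lost without any one of 10 of the 12 libraries. Groups of 3 libraries are too small to look for single libraries that stand apart.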

How the results depend on the processing

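Of 668 recalculations of 137 member changes other than leaving out a library, 628 kept their direction and side of the threshold, 22 lost the call, 16 gained one and 2 reversed. With a pseudocount of 0.1 calls were lost for Edn1 in the LPS effect in the libraries labelled Setd1bKO minus control (-1.03) and at 6 h for the Dex effect under LPS minus without LPS in WT (1.48), the Dex effect under LPS in Setd1aDel minus WT (-1.07), Dex with LPS over LPS in Setd1aDel (1.03) and Setd1aDel over WT with Dex and LPS (0.45), and for the IFNB1 effect in Setd1aDel minus WT (0.83). The LPS effect on Edn1 in Setd1aDel minus WT at 6 h, a description, was 0.41. The same setting lost Adm for Dex with LPS over LPS in control (-0.57), Vegfc for IFNB1 with LPS over LPS in Setd1aDel (0.42) and Ece1 in Setd1aDel for Dex with LPS over LPS (-0.34) and over vehicle (-0.26) at 16 h and, at 6 h, for Dex over vehicle (-0.74), Dex with LPS over vehicle (0.62), LPS over vehicle (0.59) and the Dex effect under LPS minus without LPS (0.77). It gained Ece1 in WT for Dex with LPS over vehicle (-0.38 at 16 h and 0.76 at 6 h).

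Scaling reversed Ece1 for LPS over vehicle in the libraries labelled Setd1bKO (0.26) and for Dex with LPS over vehicle in Setd1aDel at 16 h (0.11). It lost Edn1 in the vehicle libraries labelled Setd1bKO over control (-0.32) and Ece1 for the Dex effect under LPS minus without LPS in Setd1aDel (0.56). It gained Adm for Dex with LPS over LPS in the libraries labelled Setd1bKO (-0.51), Ece1 for Dex with LPS over LPS (-0.39) and LPS over vehicle (0.53) in control, for the LPS effect in Setd1aDel minus WT (0.35) and LPS over vehicle in Setd1aDel (0.47) at 16 h and for Dex with LPS over vehicle in WT at 6 h (0.42), and Vegfc at 6 h for the Dex effect under LPS minus without LPS in Setd1aDel (-0.38), for the Dex effect under LPS in Setd1aDel minus WT (-0.51) and for Dex with LPS over LPS in WT (-0.27). Scaling moved the median of all genes by over 0.1 in 20 of 44 comparisons and the share of higher among called genes by over 10 percentage points in 39 of 44. With the compared groups alone calls were gained for Dex with LPS over LPS for Adm in the libraries labelled Setd1bKO (-0.33), Ece1 (-0.21) and Edn1 (0.22) in control and Vegfc in WT at 6 h (-0.24), and lost for Adm in control (-0.51) and Vegfc in WT at 16 h (-0.19). Without a filter the IFNB1 effect on Adm in Setd1aDel minus WT lost its call (0.91).

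The labels number replicates alike in all groups. Same-numbered libraries deviated together with r of -0.322 to 0.278, and differently numbered ones with r of -0.335 to 0.383 (both ranges reached at 16 h). No sign of pairing by number was seen, but whether same-numbered libraries share a culture or an animal is not stated. With the replicate block the IFNB1 effect on Adm in Setd1aDel minus WT (0.91) and the Dex effect on Ece1 under LPS minus without LPS in Setd1aDel (0.64) lost their call, and Adm for Dex with LPS over LPS in the libraries labelled Setd1bKO gained one (-0.33). The block changed no other call.

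Leaving out each library in turn kept 959 of 1008 member results as they were, lost 40 calls and gained 9. The range was -0.64 to -0.28 for Adm with Dex and LPS over LPS in control, 0.73 to 1.05 for the IFNB1 effect on Adm in Setd1aDel minus WT (lost without any library except Setd1aDel LPS replicate 1 and WT IFNB1 and LPS replicate 3), and 0.22 to 0.54 for Adm with IFNB1 in WT (gained without IFNB1 and LPS replicate 1). For Ece1 it was -0.34 to -0.29 in the LPS libraries labelled Setd1bKO over control (lost without replicate 2 or 3 of either), -0.32 to -0.0922 in vehicle (gained without vehicle replicate 2 labelled Setd1bKO), -0.29 to -0.19 for Dex with LPS over vehicle in Setd1aDel at 16 h (lost without Dex and LPS replicate 2 or vehicle replicate 1 or 2), 0.26 to 0.48 for the same in WT at 6 h (gained without Dex and LPS replicate 3 or vehicle replicate 1) and 0.51 to 0.73 for the Dex effect under LPS minus without LPS in Setd1aDel (kept without Dex replicate 2, LPS replicate 1 or 3 or vehicle replicate 2). For Edn1 it was -0.52 to -0.16 in the vehicle libraries labelled Setd1bKO over control (kept without control replicate 1), 0.35 to 0.55 for the Dex effect under LPS minus without LPS in Setd1aDel (gained without Dex or vehicle replicate 3) and 0.36 to 0.49 for Setd1aDel over WT with Dex and LPS at 6 h. For Vegfc it was -0.24 to -0.10 for Dex with LPS over LPS in WT at 16 h, -0.58 to -0.34 for the Dex effect under LPS in Setd1aDel minus WT at 6 h (gained without Dex and LPS replicate 1 or 2 of Setd1aDel), and with IFNB1 0.34 to 0.45 in Setd1aDel and 0.0944 to 0.36 in WT (gained without LPS replicate 3).

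The number of called genes moved by over 1.5 times with the compared groups alone at 6 h for Setd1aDel over WT with Dex (668, against 1219) and with Dex and LPS (1356, against 2350), for the Dex effect under LPS in Setd1aDel minus WT (305, against 475) and for that without LPS (10, against 26). Leaving out a library took the last 2 to 278 to 522 and 9 to 42 genes, and the IFNB1 effect in Setd1aDel minus WT to 553 to 1876, against 1237. Where no value is named the cause was not tested. Depth is unknown, and levels below about 1 TPM are the least certain.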
